A study of Mus musculus with 3 samples.

Results

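The organic ion transporters of the kidney were followed as 53 of the 33696 genes in the files, chosen by gene symbol: 26 of the Slc22 family, 15 of the Slco family, 10 of the Abcc family and 2 of the Slc47 family. The symbol rule itself used no measured value, but it was set with earlier results of these data known. The transcripts came from 3 single-cell libraries of dissociated kidneys of male mice, 1 library each. Mice of 20 months given D+Q made up the aged D+Q group, mice of the same age given vehicle the aged group, and control mice labelled 3/4 months the young group. D+Q usually stands for dasatinib, a kinase inhibitor, and quercetin, a plant flavonoid; the series calls the treatment senolytic, meaning that it aims to clear senescent cells. The labels give neither the strain nor the number of animals behind a library.

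The kidney clears drugs, toxins and metabolic waste that are too tightly bound to protein to be filtered. Proximal tubule cells take organic anions and cations from the blood through Slc22 and Slco carriers on the basolateral side and pass them into the urine through Abcc pumps, which use ATP, and through Slc47 exchangers, which use the proton gradient. Other members of these families work in the opposite direction and recover urate or carnitine from the filtrate. Several members are known to differ between the sexes in rodent kidney and to depend on sex steroids, growth hormone and nuclear factors such as HNF4.

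After filtering, 7424 cells of the aged D+Q library, 5701 of the aged library and 7734 of the young library were kept, with median depths of 2285, 1875 and 2388 counts. Cells were assigned to gates by counts of unique molecular identifiers (UMIs, 1 per captured transcript) of marker genes, none of which was a transporter of the list. The proximal tubule gate held 4702 aged D+Q, 3746 aged and 4471 young cells. Within it, cells with at least 75% of their segment-marker UMIs from early-segment genes formed the S1 gate (1337 aged D+Q, 952 aged and 1270 young cells) and cells with at most 25% formed the S3 gate (2420 aged D+Q, 1891 aged and 1844 young cells), which may include the middle segment. Genes kept out of the gating went with these names: Gatm, an S1 enzyme, had 1350, 1443 and 1524 CPM (counts per 1000000 UMIs) in the S1 gate of aged D+Q, aged and young, and 97.0, 116 and 118 CPM in the S3 gate. Barcode sequences shared between libraries numbered 28 to 38 per pair.

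Transcripts of proximal tubule cells were found in every gate. Carry-over was gauged by the summed level of 12 genes from the marker list of the proximal tubule gate. In the endothelial gate it stood at 67.2% of the proximal tubule level in aged D+Q, 69.0% in aged and 69.3% in young. The thick ascending limb gate had 77.3% in aged D+Q, 74.3% in aged and 73.3% in young, and the distal convoluted tubule gate 56.8%, 60.6% and 54.3%. The share differed widely between the 12 genes. In the thick ascending limb gate of aged D+Q, Kap had 12480 CPM against 11500 in the proximal tubule gate. Slc34a1 had 2680 against 5560 CPM. In the distal convoluted tubule gate of aged D+Q, Kap had 10490 and Slc34a1 1558 CPM. The summed shares are therefore a rough guide and no cutoff for a single gene. A transporter at or below them outside the proximal tubule is not given as expressed there. With 1 library per group, no difference between libraries has a replicate check or a test. Their intervals are 95% intervals for counting error, and "higher" and "lower" describe these 3 libraries. A lower level can reflect fewer cells of a type or less RNA per cell, which cannot be told apart in summed counts. Levels are UMI counts of 3′ tags and are not scaled by transcript length, so their order among genes is an order of tag counts.

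Transporter transcripts made up 0.706% of the UMIs of all cells kept in aged D+Q, 0.771% in aged and 0.610% in young. In the proximal tubule gate the shares were 0.840% in aged D+Q, 0.899% in aged and 0.744% in young. A floor of at least 30 counts in total and 5 CPM on average was passed by 37 of the 53 members in all cells and by 33 in the proximal tubule gate. Among the 16 members below it in all cells, Slc22a13 and Slc22a13b were at 0 counts in every library, which allows up to 0.156, 0.229 and 0.138 CPM in aged D+Q, aged and young. In the GENCODE annotation both lie inside the gene Slc22a14 on the same strand of chromosome 9, so the counts of Slc22a14 and of these neighbours are uncertain. Abcc8, a subunit of a potassium channel, had 6 counts in aged D+Q, 0 in aged and 18 in young, and Slc22a3, an organic cation carrier, had 25, 15 and 32 counts. Slc47a2 was highest of these, with 68 counts in aged D+Q, 57 in aged and 82 in young, followed by Slc22a27 with 65, 41 and 82. Slco1c1, Slc22a16, Abcc12, Slc22a20, Slco1b2, Slco6b1, Slco6d1, Slco5a1, Slco1a5 and Slco6c1 had 37 counts or fewer in every library. Abcc1, Abcc3, Slco4a1 and Slc22a15 passed the floor over all cells but not in the proximal tubule gate.

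A few genes held most of the signal in the proximal tubule gate. Slco1a6, a carrier of the organic anion-transporting polypeptide family, and Slc22a30, a rodent relative of the organic anion transporters, were highest by tag count. Slc22a30 had 1365 CPM in aged D+Q, 1418 in aged and 1231 in young. Next came Abcc2, the apical pump for conjugated anions, with 931 CPM in aged D+Q, 1043 in aged and 835 in young. Slc22a28, another rodent relative of the anion transporters, had 845 CPM in aged D+Q, 982 in aged and 666 in young. Slc47a1, the apical exchanger for organic cations, had 689 CPM in aged D+Q, 688 in aged and 580 in young. Each of these genes was lowest in the young library. Slc22a18, an orphan carrier, was nearly level at 435 CPM in aged D+Q, 422 in aged and 408 in young. Slco3a1, a prostaglandin and thyroid hormone carrier, had 350 CPM in aged D+Q, 377 in aged and 280 in young. At the low end of the floor, Slc22a26 had 5.24 CPM in aged D+Q, 3.96 in aged and 9.16 in young.

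**Figure D1:**
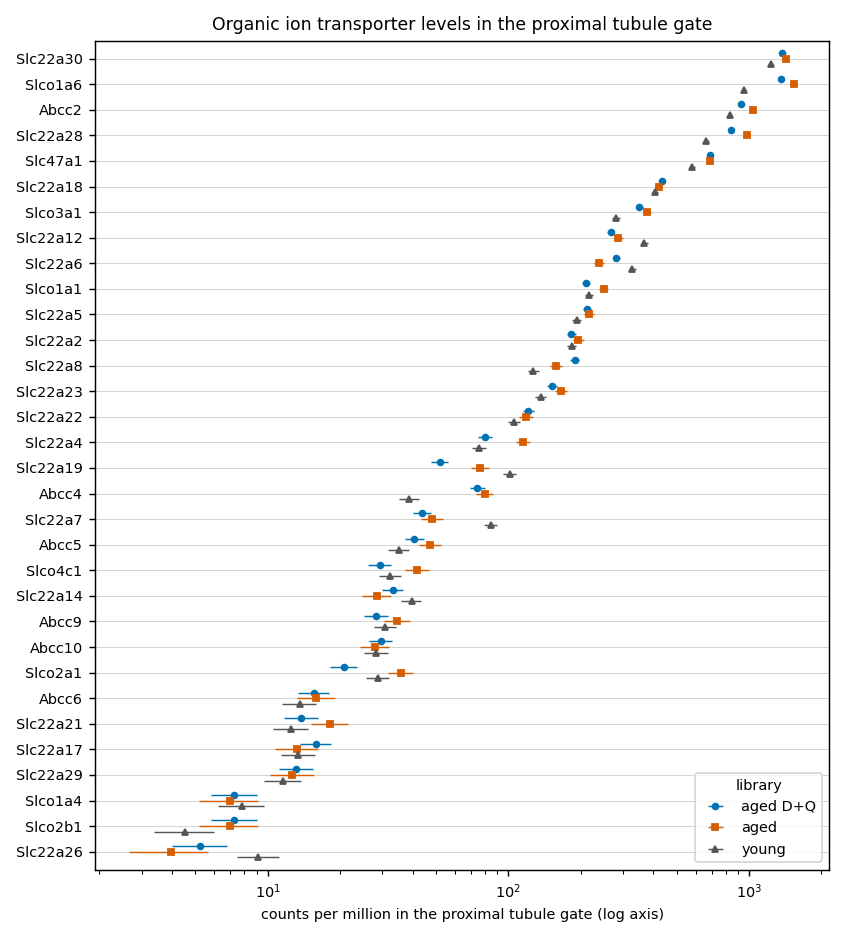
Levels of 32 of the 33 transporters above the floor in the proximal tubule gate, in CPM on a log axis, with 95% Poisson intervals, for the aged D+Q, aged and young libraries. Levels run from Slc22a30 and Slco1a6 near the top, at 952 CPM or more in every library, to Slc22a26 at 3.96 to 9.16 CPM.

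The aged library stood above the young library for most transporters. In the proximal tubule gate 24 of the 33 members above the floor had a ratio of aged over young above 1 and 9 below it. The median log2 ratio was 0.20, against 0.06 over the 10979 genes above the same floor. At a size of 1.5-fold, 4 members were higher and 2 lower in aged than in young, where 5.09% of all genes were higher and 3.73% lower. Over all cells kept, 4 of 37 were higher, against 3.56% of all genes, and 3 were lower, against 3.35%. Each count is small, and Slc22a4 (log2 0.61) and Slco2b1 (0.62) lay just past the 1.5-fold limit, with Slc22a28 (0.56) just inside it. With TMM scaling or median-of-ratios size factors that count was 2.

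Of the carriers that bring anions and other substrates into the cell, Slco1a6 had 1356 CPM in the proximal tubule gate of aged D+Q, 1539 in aged and 952 in young. The aged library was the highest and the intervals of the 3 libraries did not overlap. The log2 ratio of aged over young was 0.69 (0.65 to 0.73), and that of aged D+Q over aged was -0.18 (-0.22 to -0.15). Slc22a4, a carrier of the antioxidant ergothioneine, had 80.1 CPM in aged D+Q, 116 in aged and 75.5 in young. The aged library stood apart, while aged D+Q and young overlapped: the log2 ratio was 0.61 (0.47 to 0.75) for aged over young, -0.53 (-0.67 to -0.39) for aged D+Q over aged and 0.08 (-0.05 to 0.22) for aged D+Q over young. Slco2b1, a carrier of steroid conjugates, was sparse here, with 82, 51 and 50 counts or 7.29, 6.96 and 4.53 CPM. These were 82 of 520, 51 of 339 and 50 of 494 counts over all cells. Its log2 ratio of aged over young was 0.62 (0.03 to 1.21). Slco2b1 was highest in the stromal and mural gate, and the part of RNA carried over from other cells in its level here was not tested.

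Among the efflux pumps, Abcc4, which exports cyclic nucleotides, urate and drug conjugates into the urine, had 74.5 CPM in aged D+Q, 79.7 in aged and 38.6 in young in the proximal tubule gate. Both aged libraries lay above the young one. The log2 ratio was 1.04 (0.86 to 1.23) for aged over young and 0.95 (0.78 to 1.12) for aged D+Q over young, and the interval of aged D+Q over aged, -0.25 to 0.06, included 0. Abcc2 and Slc47a1, the other apical exits, differed less, with log2 ratios of aged over young of 0.32 (0.28 to 0.36) and 0.25 (0.19 to 0.30).

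The members lowest in aged relative to young were carriers of the Slc22 family. Slc22a7, the anion transporter OAT2, had 43.8 CPM in the proximal tubule gate of aged D+Q, 48.3 in aged and 84.5 in young, and both aged libraries lay below the young one. Its log2 ratio was -0.81 (-0.99 to -0.63) for aged over young and -0.14 (-0.34 to 0.06) for aged D+Q over aged. Slc22a19, an apical anion carrier of rodent kidney, had 51.9, 76.5 and 101.4 CPM in aged D+Q, aged and young. Here aged D+Q was the lowest, with a log2 ratio of -0.56 (-0.73 to -0.39) to aged and -0.96 (-1.11 to -0.82) to young. Slc22a26, of the same rodent group, rested on 59, 29 and 101 counts and had a log2 ratio of aged over young of -1.19 (-1.86 to -0.60). Slc22a12, the urate carrier URAT1 that recovers urate from the filtrate, had 266, 286 and 367 CPM and a log2 ratio of aged over young of -0.36 (-0.44 to -0.29).

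The other 16 members above the floor in the proximal tubule gate were within 1.5-fold in each library comparison. Aged over young, their log2 ratios ran from -0.47 for Slc22a14 to 0.54 for Slc22a21, a carnitine carrier of mouse. Aged D+Q over aged, they ran from -0.51 for Slco4c1 to 0.26 for Slc22a17. Slc22a5, the main carnitine carrier, had 212 CPM in aged D+Q, 217 in aged and 193 in young, and Slc22a2, the basolateral cation carrier OCT2, had 182, 195 and 183 CPM. Both were nearly level across libraries. Slc22a28 was past 1.5-fold between aged and young over all cells only, with 662, 784 and 509 CPM and a log2 ratio of 0.62, against 0.56 in the proximal tubule gate.

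**Figure D2:**
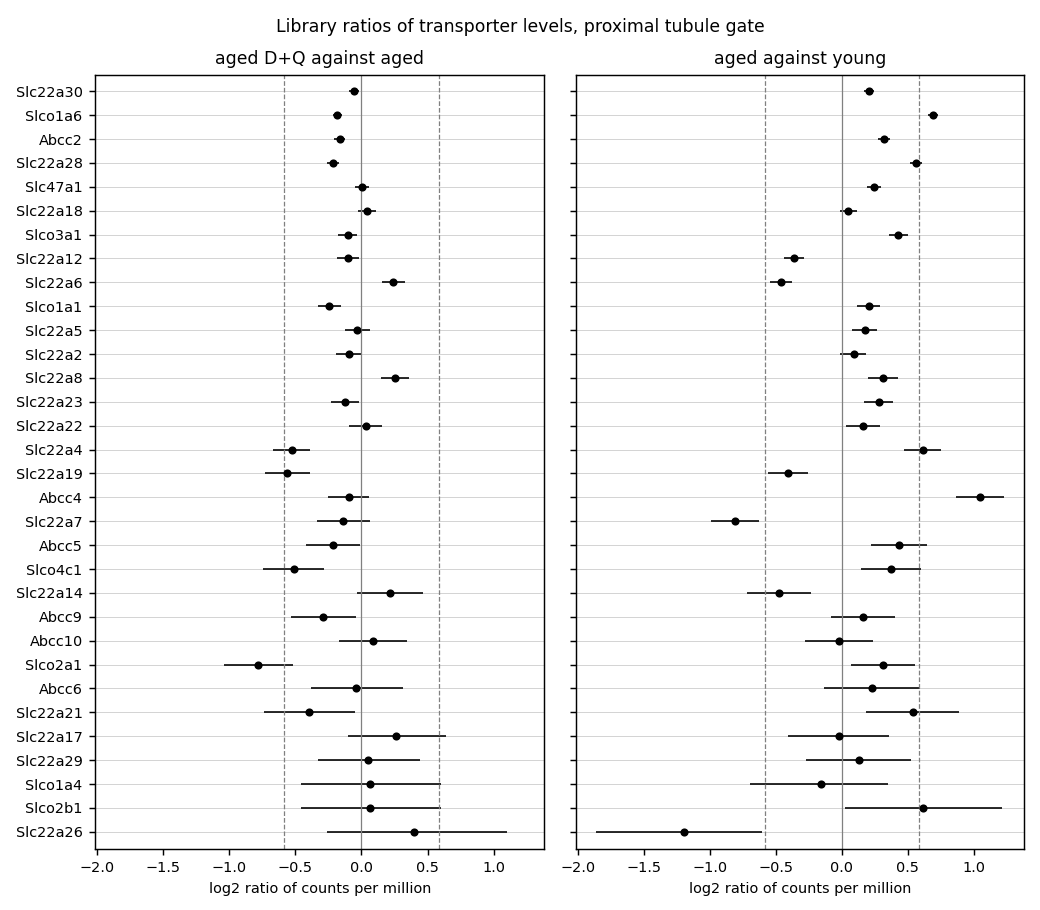
Log2 ratios of CPM with 95% counting intervals for 32 of the 33 transporters above the floor in the proximal tubule gate, aged D+Q over aged on the left and aged over young on the right; dashed lines mark 1.5-fold. Abcc4 lies at 1.04 and Slc22a26 at -1.19 on the right, and Slco2a1 at -0.78 is the member past 1.5-fold on the left.

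The aged D+Q library differed from the aged one by smaller amounts. In the proximal tubule gate 0 members were at least 1.5-fold higher and 1 was lower in aged D+Q than in aged, where 2.01% of all genes were higher and 2.85% lower. The median log2 ratio was -0.10, against -0.05 over all genes. The 1 member was Slco2a1, the prostaglandin transporter, with 20.8 CPM in aged D+Q, 35.7 in aged and 28.7 in young. Its log2 ratio of aged D+Q over aged was -0.78 (-1.04 to -0.52). Over all cells kept, 1 member was higher, against 1.46% of all genes, and 0 were lower, against 1.75%. Against young, the aged D+Q proximal tubule gate had 2 members higher (2.86% of all genes) and 3 lower (3.05%), and all its cells had 1 higher (1.97%) and 3 lower (2.73%). Each library serves in a pair of these comparisons, so the ratios are not independent of each other.

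The 1 member higher over all cells was Abcc3, a basolateral pump for glucuronides, whose highest level was in the urothelium gate. Abcc3 had 82 counts or 4.27 CPM in all cells of aged D+Q, 23 counts or 1.75 CPM in aged and 212 counts or 9.78 CPM in young. The log2 ratio was 1.26 (0.60 to 2.02) for aged D+Q over aged and -2.45 (-3.17 to -1.86) for aged over young. Of these counts, 31, 3 and 122 lay in the urothelium gate, which held 48 aged D+Q, 9 aged and 110 young cells, where Abcc3 reached 169, 115 and 303 CPM. Without those cells the ratio was 0.79 (0.04 to 1.64) for aged D+Q over aged, which is still past 1.5-fold, but at 2.68 CPM in aged D+Q, 1.53 in aged and 4.23 in young Abcc3 was then under the floor and left the count. The aged over young ratio without them was -1.44 (-2.25 to -0.76). The sources used here do not say how much renal pelvis entered each digestion, and its part in the difference over all cells was not tested.

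The segments of the proximal tubule carried different transporters. The S3 and S1 gates were compared over the 3 libraries as pairs with edgeR's quasi-likelihood test, adjusted over 12288 genes. Of 36 members fitted, 21 were higher in S3 and 7 lower, where 18% of all genes were higher and 19.4% lower. The median log2 ratio of the members was 0.54, against 0.00 over all genes. The libraries stand for separate age and treatment groups, so their spread is not that of replicate animals. Leaving out 1 library at a time, 21 to 22 members were higher and 6 to 7 lower.

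On the S3 side, Slco4c1, a basolateral carrier of digoxin and thyroid hormone, had 49.1 CPM in the S3 gate and 2.81 in the S1 gate of aged D+Q, 73.8 and 2.14 CPM in aged, and 65.9 and 3.04 CPM in young. Its fitted log2 ratio was 4.40 ± 0.20 (SE, n = 3 libraries, edgeR adjusted p = 3.68e-19). Slco1a4, a bile acid and steroid conjugate carrier, followed with 3.46 ± 0.40 (edgeR adjusted p = 7.17e-09), with 63 counts in aged D+Q, 36 in aged and 53 in young in S3 and 4, 1 and 2 counts in S1. Slc22a26 and Slc22a19 had fitted ratios of 3.13 ± 0.39 and 3.00 ± 0.13, Abcc9, a regulatory subunit of potassium channels, 2.94 ± 0.18, Slco1a1 2.34 ± 0.11 and Slc22a7 2.19 ± 0.14. Each of these genes had a higher level in the S3 than in the S1 gate of every library.

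On the S1 side, Slc22a29, another rodent anion carrier, had 1.82 CPM in the S3 gate and 38.7 in the S1 gate of aged D+Q, 4.23 and 35.3 CPM in aged, and 3.25 and 34.1 CPM in young. Its fitted log2 ratio of S3 over S1 was -3.67 ± 0.22 (SE, n = 3 libraries, edgeR adjusted p = 4.24e-16). Abcc4 followed with -2.51 ± 0.13 (edgeR adjusted p = 2.72e-17), and the orphan carrier Slc22a23 with -2.19 ± 0.09. Slc22a8, the anion carrier OAT3, was also higher in S1 (-0.94 ± 0.12), as were Abcc5 (-0.81 ± 0.12) and the carnitine carrier Slc22a5 (-0.35 ± 0.09). The 8 members that did not pass the test were Slc22a17, Abcc6, Slc22a18, Abcc10, Slc22a21, Slco2b1, Abcc1 and Slc22a27.

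**Figure D3:**
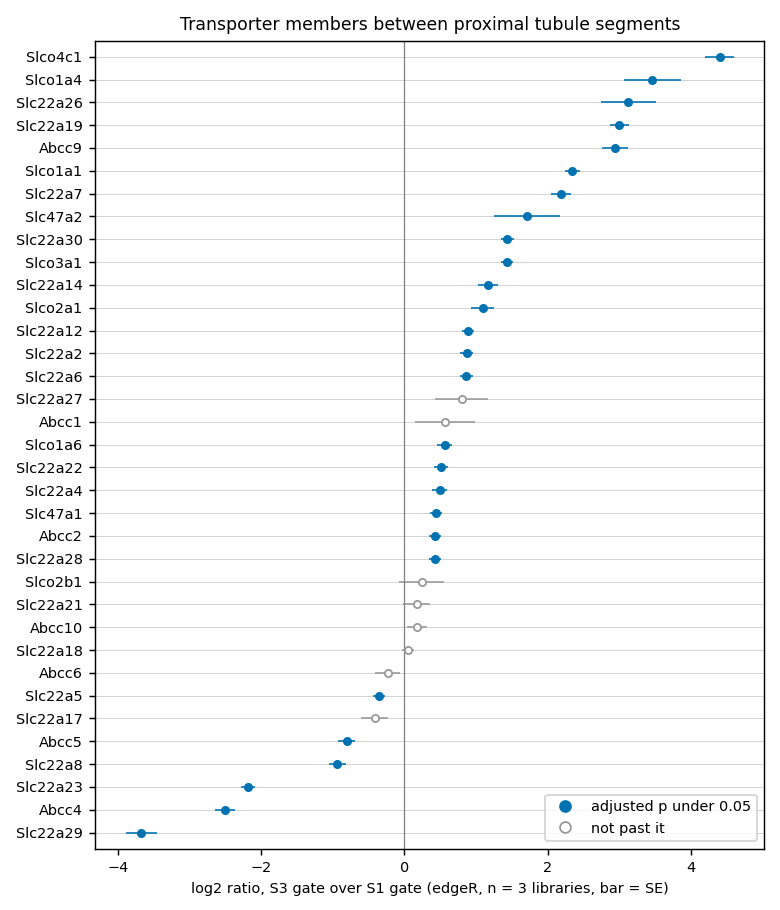
Log2 ratio of the S3 over the S1 gate for 35 of the 36 fitted transporters, edgeR estimate with its standard error over 3 libraries; filled points have an adjusted p under 0.05. Slco4c1 at 4.40 and Slc22a29 at -3.67 are the ends of the range.

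Members of 1 run of genes differed in segment. In RefSeq's mouse annotation (GRCm38.p6), Slc22a26, Slc22a27, Slc22a28, Slc22a29, Slc22a30, Slc22a8 and Slc22a6 lie in 1 run on chromosome 19, with other genes between some of them. Within this run, Slc22a26 had the log2 ratio of S3 over S1 of 3.13, Slc22a30 of 1.43, Slc22a6 of 0.86 and Slc22a28 of 0.43, while Slc22a8 had -0.94 and Slc22a29 -3.67; Slc22a27, at 0.80 ± 0.37, did not pass the test. Members of this run are closely related in sequence, and the sources used here do not say how reads matching more than 1 of them were counted.

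The pair at the end of that run, Slc22a8 and Slc22a6, encodes the main basolateral entry for organic anions, OAT3 and OAT1. In the proximal tubule gate Slc22a8 had 188 CPM in aged D+Q, 158 in aged and 127 in young, and Slc22a6 had 281, 238 and 327 CPM. Aged over young, their log2 ratios were 0.32 (0.20 to 0.43) and -0.46 (-0.55 to -0.38), and their start regions are shown because these neighbours differed in opposite directions. The windows run from 250 bases before to 50 bases after the RefSeq start, 5′ to 3′, on GRCm38.p6, Slc22a8 at chr19:8592932-8593231, plus strand, and Slc22a6 at chr19:8617746-8618045, plus strand. No base is in capitals, since these windows held none of the motifs searched.
Slc22a8: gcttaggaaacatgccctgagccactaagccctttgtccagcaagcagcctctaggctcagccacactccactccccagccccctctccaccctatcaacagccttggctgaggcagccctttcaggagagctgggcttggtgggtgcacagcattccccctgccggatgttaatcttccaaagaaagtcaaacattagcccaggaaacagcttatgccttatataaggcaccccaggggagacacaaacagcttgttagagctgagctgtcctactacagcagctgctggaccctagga
Slc22a6: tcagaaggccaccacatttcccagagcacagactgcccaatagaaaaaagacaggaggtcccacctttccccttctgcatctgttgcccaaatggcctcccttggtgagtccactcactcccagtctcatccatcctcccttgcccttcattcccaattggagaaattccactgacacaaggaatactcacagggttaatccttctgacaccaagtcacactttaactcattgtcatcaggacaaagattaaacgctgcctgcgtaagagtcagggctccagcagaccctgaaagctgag
The motifs searched on both strands were AAAGTCCA (HNF4 core, found in 1.25% of the 32851 mouse start windows of this length), AGGTCA (nuclear receptor half-site, 16.3%), AGAACA (steroid receptor half-site, 19%) and TATAAA (13.6%), and neither window held any of them. A match is a run of letters and not a measured site.

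In the S3 gate, Slc22a8 had 156 CPM in aged D+Q, 121 in aged and 72 in young, so that all 3 libraries stood apart in that order. The log2 ratio was 0.74 (0.54 to 0.95) for aged over young, 0.37 (0.21 to 0.54) for aged D+Q over aged and 1.12 (0.94 to 1.30) for aged D+Q over young. In the S1 gate it was nearly level, with 213 CPM in aged D+Q, 209 in aged and 199 in young. Slc22a6 had 321, 256 and 332 CPM in the S3 gate and 142, 142 and 197 CPM in the S1 gate, again for aged D+Q, aged and young. The log2 ratio of aged over young was -0.38 (-0.49 to -0.26) in S3 and -0.48 (-0.69 to -0.27) in S1. For aged D+Q over aged, Slc22a6 had 0.33 (0.22 to 0.44) in S3, where its aged D+Q and young intervals overlapped.

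The share of S3-gate cells with at least 1 Slc22a8 UMI, after thinning every cell to 1000 UMIs, was 13.6% in aged D+Q (12.3 to 15.03), 10.4% in aged (9.08 to 11.9) and 7.10% in young (5.97 to 8.37), as exact binomial intervals. Unthinned shares were 28.4% in aged D+Q, 18.7% in aged and 15.4% in young at median depths of 2412, 1827 and 2563 counts. In the endothelial gate, a cell type outside the tubule, the thinned Slc22a8 shares were 12.1% in aged D+Q (8.84 to 16.0), 7.39% in aged (4.19 to 11.9) and 8.26% in young (5.85 to 11.3), and unthinned shares 28.2%, 22.2% and 20.9%, at median depths of 2596, 2358 and 2528.5 counts. The S3 shares lay within these intervals in every library. They also lay within the thinned thick ascending limb intervals, 8.714 to 14.97% in aged D+Q, 6.006 to 14.22% in aged and 6.098 to 11.41% in young. The part of carried-over RNA in the S3 ratios was not tested. The S1 shares of 17.8% in aged D+Q, 18.2% in aged and 16.9% in young (35.5%, 30.6% and 32.8% unthinned) lay above both sets of intervals.

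A run on chromosome 6 holds Slco1c1, Slco1b2, Slco1a4, Slco1a1, Slco1a6 and Slco1a5, with other genes between some of them. Slco1a6 and Slco1a1 were both higher in S3 and differed in the size of that step and between libraries, and their start regions are given for that reason, on GRCm38.p6, Slco1a6 at chr6:142186100-142186399, minus strand, and Slco1a1 at chr6:141946913-141947212, minus strand. Capitals mark AGGTCA and TATAAA on either strand.
Slco1a6: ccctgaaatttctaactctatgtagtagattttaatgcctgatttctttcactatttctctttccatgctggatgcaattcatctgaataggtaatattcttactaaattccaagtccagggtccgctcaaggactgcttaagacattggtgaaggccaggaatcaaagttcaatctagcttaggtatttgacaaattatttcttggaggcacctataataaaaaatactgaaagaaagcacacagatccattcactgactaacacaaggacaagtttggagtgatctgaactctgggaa
Slco1a1: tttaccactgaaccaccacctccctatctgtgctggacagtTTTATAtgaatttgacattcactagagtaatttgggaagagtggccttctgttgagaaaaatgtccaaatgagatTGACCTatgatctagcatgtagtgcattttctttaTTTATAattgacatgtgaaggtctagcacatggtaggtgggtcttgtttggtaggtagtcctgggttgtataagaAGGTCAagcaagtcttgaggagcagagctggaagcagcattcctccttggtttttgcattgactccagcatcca
Slco1a1 held 2 copies of AGGTCA and 2 of TATAAA, and Slco1a6 held none of the 4 motifs searched. Sequences were matched for 42 of the 53 members.

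In the S1 gate, Slco1a6 had 1222 CPM in aged D+Q, 1291 in aged and 503 in young, and in the S3 gate 1517, 1679 and 1169 CPM. The young S1 gate stood apart from the other 5 values. The log2 ratio of aged over young was 1.36 (1.27 to 1.45) in S1 and 0.52 (0.47 to 0.57) in S3. The step from S1 to S3 was 0.31 (0.26 to 0.37) on the log2 scale in aged D+Q, 0.38 (0.31 to 0.45) in aged and 1.22 (1.13 to 1.30) in young. Slco1a1, of the same run, kept a wide step in each, at 2.42 in aged D+Q, 2.80 in aged and 2.09 in young. Over 6 other settings of scaling, gates and filters the S1 ratio of Slco1a6 in aged over young was 1.28 to 1.43.

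Carried-over transcripts touch this value. In the endothelial gate Slco1a6 had 846 CPM in aged D+Q, 1003 in aged and 619 in young, so the young S1 level was below the young endothelial level. Thinned to 1000 UMIs, 61.9% of aged D+Q, 63.5% of aged and 34.5% of young S1-gate cells had a Slco1a6 UMI (82.1%, 79.2% and 54.2% unthinned). Among endothelial-gate cells the thinned shares were 44.3% in aged D+Q (39.0 to 49.7), 50.3% in aged (43.2 to 57.3) and 33.9% in young (29.5 to 38.6), and 65.5%, 74.9% and 56.2% unthinned. In S3-gate cells they were 67.8% in aged D+Q, 72.2% in aged and 60.4% in young thinned and 86.9%, 86.0% and 83.2% unthinned. The young S1 share lay within the interval of the young endothelial share, whereas the S1 shares of both aged libraries lay above theirs. In the thick ascending limb gate the thinned intervals were 22.07 to 30.57% in aged D+Q, 33.91 to 47.26% in aged and 21.11 to 29.22% in young. The S1 share lay above the interval of that gate in every library. The place of the young S1 share thus depends on the gate it is set beside. The part of carried-over RNA in the S1 ratio was not tested.

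Abcc4 showed its steepest library ratio where it was lowest. In the S3 gate it had 32.9 CPM in aged D+Q, 42.3 in aged and 10.6 in young, from 199, 160 and 52 counts. The aged over young log2 ratio was 2.00 (1.54 to 2.48) in S3 and 0.74 (0.52 to 0.97) in S1, where the levels were 160, 177 and 105.5 CPM. The share of S3-gate cells with an Abcc4 UMI, thinned, was 2.69% in aged D+Q, 3.49% in aged and 0.922% in young. In the endothelial gate it was 10.1% in aged D+Q, 8.37% in aged and 6.88% in young. Abcc4 was itself higher in that gate than in the proximal tubule gate, so it gives no background level here. In the thick ascending limb gate the thinned share was 2.55% in aged D+Q (1.28 to 4.51), 6.36% in aged (3.52 to 10.45) and 4.57% in young (2.85 to 6.89). Unthinned it was 8.57%, 20.0% and 8.04%. The S3 share lay within this thinned interval in aged D+Q and below it in aged and young. The part of carried-over RNA in the S3 ratio was not tested. Unthinned, the S3 shares were 6.61% in aged D+Q, 6.504% in aged and 2.55% in young and the endothelial shares 25%, 23.7% and 18.1%. The S1 shares, 12.9%, 16.3% and 9.06% thinned (25.9%, 27.0% and 18.7% unthinned), lay above the endothelial ones, with overlapping intervals in aged D+Q and in young. Slc22a7 was concentrated in S3, with 62.1, 68.2 and 139 CPM in aged D+Q, aged and young and a log2 ratio of aged over young of -1.02 (-1.24 to -0.81). Its thinned share of S3-gate cells was 5.87% in aged D+Q, 5.66% in aged and 13.02% in young (12.4%, 10.5% and 25.1% unthinned). These lay above the endothelial shares of 2.59%, 2.96% and 4.82% (6.32%, 7.39% and 15.1% unthinned), with overlapping intervals in aged. In the thick ascending limb gate the thinned Slc22a7 share was 3.94% in aged D+Q (2.31 to 6.23), 2.27% in aged (0.742 to 5.22) and 6.74% in young (4.62 to 9.43). The S3 share lay within this interval in aged D+Q and above it in aged and young. The part of carried-over RNA in the Slc22a7 ratio was not tested.

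**Figure D4:**
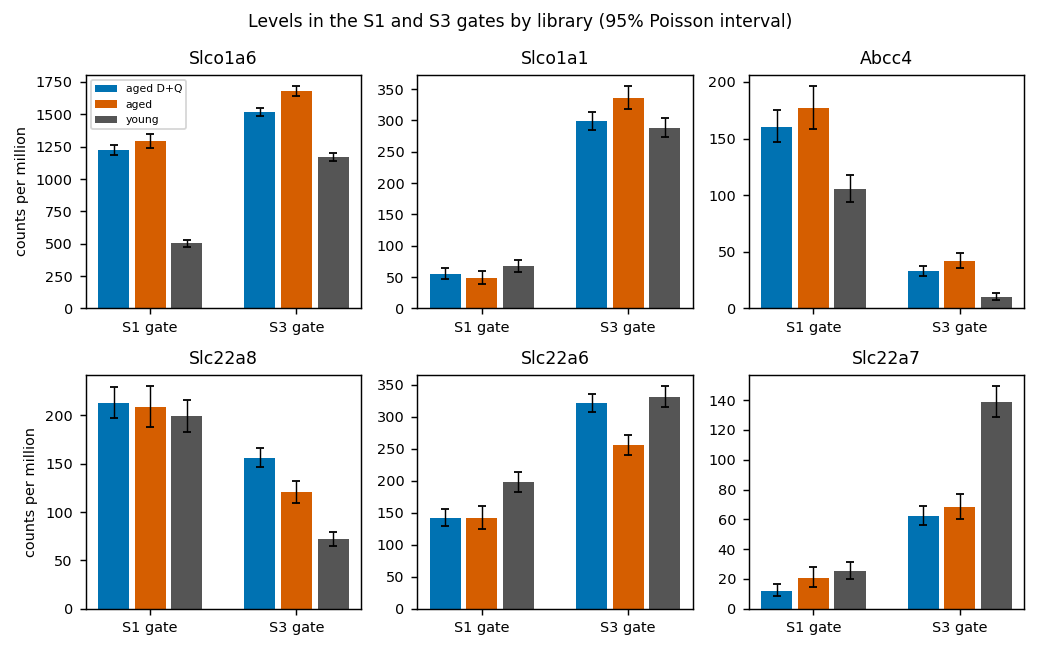
CPM of 6 transporters in the S1 and S3 gates of the aged D+Q, aged and young libraries, with 95% Poisson intervals. Slco1a6 in S1 and Abcc4 in S3 are lowest in young (503 and 10.6 CPM), and Slc22a7 in S3 is highest in young (139 CPM).

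By count, the S1 gate had 29 members above the floor and the S3 gate 32. Aged over young, 5 members were at least 1.5-fold higher and 1 lower in S1, where 8.88% and 8.55% of all genes were; in S3 there were 3 and 4, where 6.61% and 5.65% were. For aged D+Q over aged the counts were 0 and 1 in S1 (5.8% and 5.46% of all genes) and 0 and 3 in S3 (3.41% and 5.28%). For aged D+Q over young they were 2 and 3 in S1 (5.87% and 6.6%) and 3 and 3 in S3 (3.95% and 5.31%). The 3 lower in aged D+Q than in aged in S3 were Slco2a1 (-0.91), Slc22a19 (-0.62) and Slco4c1 (-0.59). All of them were on the S3 side of the segment test, as were 21 of the 36 members fitted. Over 6 other settings Slc22a19 had -0.64 to -0.50 and Slco4c1 -0.63 to -0.43, so each was within 1.5-fold in some of them.

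Outside the proximal tubule most members stood lower, and a small set higher. In the thick ascending limb gate against the proximal tubule gate, 6 of 38 members were higher and 20 lower (19.6% and 18.9% of 13644 genes; edgeR quasi-likelihood test, n = 3 libraries). Slco4a1, a thyroid hormone carrier, had 23, 16 and 17 counts there, or 21.7 CPM in aged D+Q, 29.6 in aged and 13.7 in young, against 0.977, 1.23 and 1.36 CPM in the proximal tubule gate, a fitted log2 ratio of 3.96 ± 0.35 (SE; edgeR adjusted p = 9.24e-14). Abcc1, a basolateral pump for glutathione conjugates, had 29.3 CPM in aged D+Q, 31.4 in aged and 28.2 in young against 3.91, 5.32 and 3.35 CPM, a ratio of 2.75 ± 0.27 (edgeR adjusted p = 1.96e-12). The others higher were Slc22a15, Slco2b1, Slc22a17, a receptor for the iron carrier lipocalin, and Slco2a1. The lowest were Slc22a28 (-1.41 ± 0.10) and Abcc2 (-1.32 ± 0.09).

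In the distal convoluted tubule gate, 3 of 37 members were higher and 25 lower than in the proximal tubule gate (11.8% and 13.5% of 12959 genes). Abcc1 (3.31 ± 0.38, edgeR adjusted p = 9.45e-09) and Slco4a1 (3.02 ± 0.68, edgeR adjusted p = 0.000767) led, followed by Slco2b1 (1.55 ± 0.47, edgeR adjusted p = 0.0121). Without the aged D+Q library the ratio of Slco4a1 was 2.30 (edgeR adjusted p = 0.0834). Abcc6, with a fitted ratio of -2.59 ± 0.67, had -1.88 without that library (edgeR adjusted p = 0.0699) and -3.75 without the aged library (edgeR adjusted p = 0.000634). Slc22a27 had 0 counts of 1189246 in this gate, which allows up to 2.52 CPM, against 132 counts or 4.46 CPM in the proximal tubule gate, so it was at least 1.77-fold lower over the group; its call was lost without the aged D+Q library (edgeR adjusted p = 0.105) or the young library (0.173). The summed transporters in this gate were 2728 CPM in aged D+Q, 5335 in aged and 2805 in young. Proximal tubule markers differed in direction across these libraries. The phosphate carrier Slc34a1, at 1558, 3190 and 1872 CPM, and Lrp2, at 522, 714 and 410 CPM, were highest in aged. Kap was lowest in aged, at 10490, 6758 and 9083 CPM. The part of carried-over RNA in the difference of the summed transporters was not tested.

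In the endothelial gate, 7 of 38 members were higher and 21 lower than in the proximal tubule gate (22% and 18.3% of 13597 genes). Slc22a15, an orphan zwitterion carrier, had 31, 5 and 35 counts or 30.3, 8.82 and 26.9 CPM in aged D+Q, aged and young, and a fitted log2 ratio of 4.10 ± 0.36 (SE, n = 3 libraries; edgeR adjusted p = 1.4e-11). Slco2b1 followed with 2.29 ± 0.25 (edgeR adjusted p = 1.41e-09). The others were Abcc1, Slco4a1, Slco1a4, Slco2a1 and Abcc4, and the lowest were Slc22a30 and Abcc2, at -1.0 ± 0.09 and -0.997 ± 0.09. DESeq2 with library as a term called 4 members higher. Slco1a4, known from brain endothelium, had 14.7 CPM in aged D+Q, 24.7 in aged and 30.0 in young here.

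Slco2b1 was highest in the stromal and mural gate, which held 133 aged D+Q, 72 aged and 136 young cells and was not tested. It had 398 CPM there in aged D+Q, 350 in aged and 345 in young, from 144, 58 and 134 counts, and the 3 intervals overlapped. Slco2a1 had 229 CPM in aged D+Q, 211 in aged and 126 in young in that gate and 174, 345 and 114 CPM in the urothelium gate, the aged value there from 9 counts. Abcc9, whose product forms the potassium channel of mural cells, had 91.1 CPM in aged D+Q, 66.3 in aged and 54.01 in young in the stromal and mural gate, from 33, 11 and 21 counts. The 12 genes of proximal tubule cells stood at 47.8% in aged D+Q, 46.3% in aged and 49.0% in young of their proximal tubule level in that gate.

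**Figure D5:**
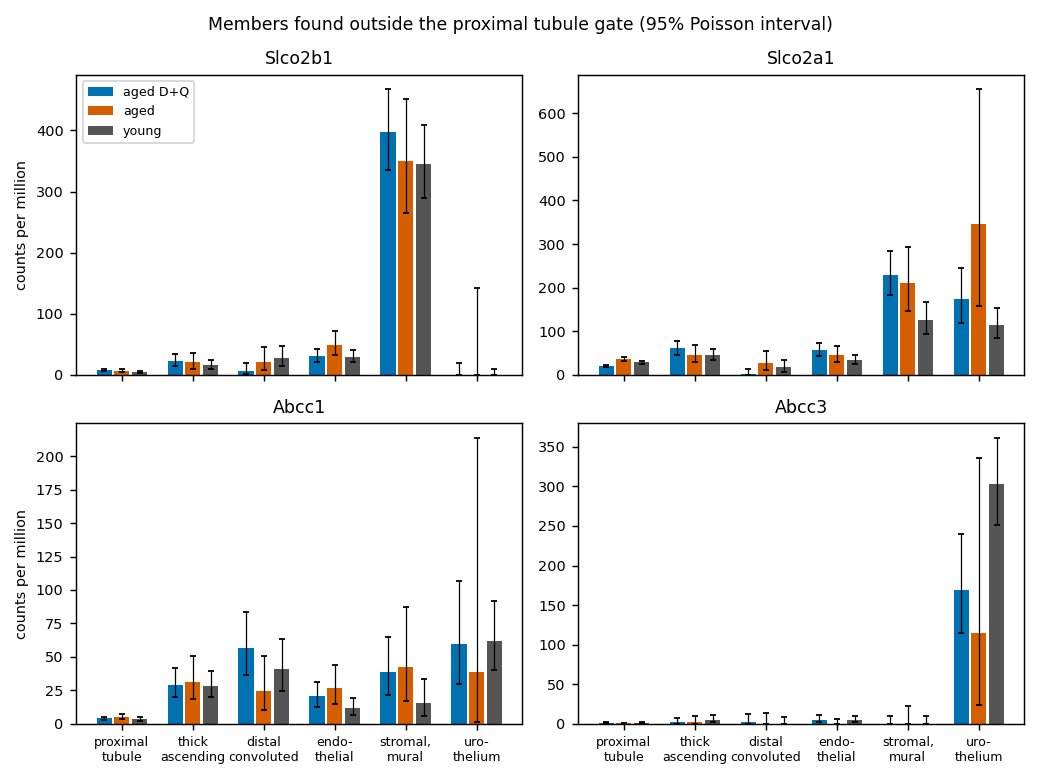
CPM of Slco2b1, Slco2a1, Abcc1 and Abcc3 in 6 gates of the aged D+Q, aged and young libraries, with 95% Poisson intervals. Slco2b1 peaks in the stromal and mural gate (345 to 398 CPM) and Abcc3 in the urothelium gate (115 to 303 CPM), where aged bars rest on 9 cells.

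Of 12 other carriers and pumps for drugs, nucleosides, peptides and urate, 10 were above the floor in the proximal tubule gate and 0 passed 1.5-fold in either direction between aged and young, beside 5.09% of all genes higher and 3.73% lower. Over all cells, 1 of 11 was higher in aged, Abcb1a, an efflux pump, with 6.72 CPM in aged D+Q, 6.86 in aged and 4.15 in young, and 1 lower, Slc15a2, a peptide carrier, with 86.3, 80.3 and 122 CPM. Abcg2, the apical urate and drug pump, had 699 CPM in aged D+Q, 618 in aged and 804 in young. All 6 genes of the sodium and dicarboxylate gradients that drive anion exchange were within 1.5-fold in aged over young, and the dicarboxylate carrier Slc13a2 had 85.7, 106 and 129 CPM in aged D+Q, aged and young, with a log2 ratio of aged D+Q over young of -0.59 (-0.71 to -0.47). The 3 scaffold genes above the floor also stayed within it, with Pdzk1, which anchors apical carriers, at 478 CPM in aged D+Q, 551 in aged and 436 in young. Counts of 0 in lists this short are near the share of all genes and say nothing particular of these partners.

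Of 12 regulators, 11 were above the floor in the proximal tubule gate and 3 were at least 1.5-fold higher in aged than in young, with 0 lower, beside 5.09% of all genes higher. The median log2 ratio of the 11 was 0.31, against 0.06 over all genes. The growth hormone receptor Ghr had 4947 CPM in aged D+Q, 6666 in aged and 4355 in young, the prolactin receptor Prlr 49.4, 51.8 and 28.3 CPM, and the xenobiotic receptor Nr1i2 9.69, 12.1 and 7.53 CPM. The log2 ratio of aged over young was 0.61 (0.60 to 0.63) for Ghr, 0.87 (0.65 to 1.09) for Prlr and 0.69 (0.24 to 1.14) for Nr1i2. Ghr lay just past the 1.5-fold limit, and the count of 3 was not repeated with other scaling. For aged D+Q over aged, Ghr had a log2 ratio of -0.43 (-0.45 to -0.41). The intervals of Prlr (-0.26 to 0.12) and Nr1i2 (-0.74 to 0.095) included 0, so aged stood apart from aged D+Q for Ghr only. The nuclear factor Hnf4a had 194 CPM in aged D+Q, 203 in aged and 166 in young, within 1.5-fold.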

How the data were processed

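The files hold UMI counts per gene and cell barcode for 3 libraries of dissociated kidney, 1 per group. Raw counts of 3′ tags were deposited by the authors as filtered barcode matrices; per the submitters' processing notes the builds GRCm39 and mm10 were used, with no role stated, so no coordinate of the files is given. The libraries held 21058975 (aged D+Q), 13944270 (aged) and 24346733 (young) counts in 8037, 6027 and 8615 barcodes. Barcodes over 50% mitochondrial counts (149, 82 and 385) and those with the highest Scrublet scores, at 0.8% per 1000 barcodes (464, 244 and 496), were left out, because the automatic doublet threshold called 1, 0 and 2. A gate outside the proximal tubule needed a minimum of marker UMIs from at least 2 genes and no other such class at its minimum. Proximal tubule markers did not bar a cell from these gates. The proximal tubule gate needed 1.5% of UMIs from its markers and every other class under 50% of its minimum. The minima were set after the marker counts had been seen. Counts were summed per library and gate and divided by the total. Ratios carry a prior of 0.5 counts, and intervals (exact Poisson for levels, exact conditional binomial for ratios, exact binomial for shares) and the limit of 3 counts for a count of 0 cover counting error at 95% only. Gates were compared with edgeR 4.0.16 (quasi-likelihood, library as a term, Benjamini-Hochberg adjustment over all genes fitted, threshold 0.05) in R 4.3.3, and this procedure was tested on simulated data. Other steps used Python 3.11.15 with scanpy 1.11.5 and scipy 1.17.1. Members and gene lists were chosen with earlier results of these data known. Full values are given for members above the floor that were past 1.5-fold between libraries, the 10 highest in the proximal tubule gate and the 2 with the largest called ratio in each direction per gate comparison; Slc22a8, Slco1a1, Slc22a5, Slc22a2, and values in further gates were chosen after they had been seen. Start windows came from RefSeq tables for GRCm38.p6, and gene overlap from GENCODE M21. No protein or genome sequence was used here, and single values of a few genes are not reported here.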

Additional observations from a re-analysis of the deposited data

Results flagged for a closer look

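Opposite signs in the S1 and S3 gates marked Slco1a1, a carrier of steroid conjugates. Slco1a1 had 48.2 CPM in the S1 gate of aged and 67.6 in young, a log2 ratio of -0.48 (-0.86 to -0.12). In the S3 gate Slco1a1 had 336 CPM in aged and 289 in young, a log2 ratio of 0.22 (0.11 to 0.33). With 1 library per group, the difference between the gates was not tested. The S1 values rest on 90 counts in aged and 200 in young. Fitted log2 ratios of Slco1a1 were 2.34 for S3 over S1 and -0.86 for the endothelial over the proximal tubule gate. Its S1 level was thus low beside what was found outside the tubule, and the part of carried-over RNA in the S1 ratio was not tested. Over 6 other settings the signs of Slco1a1 held, at -1.09 to -0.46 in S1 and 0.14 to 0.43 in S3.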

How the results depend on the processing

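No library comparison has a replicate, carried-over tubule RNA was present in every gate, and gate minima were set after the data had been seen. No paired analysis was possible between libraries because each group has 1. Of the single-member values under alternatives, 1625 stayed within their limits, 134 moved, 5 were no longer past their threshold and 0 past 1.5-fold or past the test changed sign. Ratios under 1.5-fold did cross 0, among them those of Slc22a26 in the S1 gate (2 to 4 counts a library), at 0.18 for aged over young and -0.70 with doublets kept. Of the summaries, 232 stayed and 26 moved; the cause was not tested. With no floor beyond 1 count, members at least 1.5-fold higher and lower over all cells were 4 and 4 (aged D+Q over aged), 7 and 5 (aged over young) and 4 and 5 (aged D+Q over young), and in the proximal tubule gate 4 and 6, 9 and 8, and 4 and 5, since members with few counts enter. For aged D+Q over aged, the 1 member higher over all cells became 0 with a mitochondrial limit of 25%, with cells thinned to 1000 UMIs (then 2 lower) or without the urothelium gate; Abcc3 kept its fold there (log2 ratios of 1.24, 2.39 and 0.79) and fell under the floor. For aged D+Q over young, 2 were higher over all cells with median-of-ratios factors, a limit of 25% or no limit. In the proximal tubule gate, aged over young had 2 higher with TMM or median-of-ratios factors. There aged D+Q over aged had 2 lower with doublets kept or thinning, and aged D+Q over young 1 higher with doublets kept or marker minima 1 higher. DESeq2 called 4 members higher in the endothelial gate. Leaving out 1 library at a time, higher and lower members ranged over 21 to 22 and 6 to 7 in S3 against S1, 5 to 7 and 18 to 21 in the thick ascending limb, 2 to 3 and 18 to 25 in the distal convoluted tubule, and 5 to 8 and 18 to 21 in endothelium. Libraries pair the gates by construction; with no replicate block the counts were 18 and 6, 6 and 18, 3 and 23, and 5 and 18. The alternatives for the S1 and S3 gates and the urothelium were chosen after seeing the data.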
